A study of Mus musculus with 2 samples.

Results

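The 5 microRNA genes described here lie in 3 imprinted regions of the mouse genome: Mir335 inside Mest, Mir296 and Mir298 beside Gnas, Mir483 inside Igf2 and Mir675 inside H19. The rule that picks them uses their annotated names and loci and no count, although it was written with earlier results of these data known, and all 5 were present among the 1973 microRNA genes of the deposited tables. Small RNA with inserts under 30 nt came from whole lungs of healthy B6NCrl mouse embryos at embryonic day 15.5. There was 1 group with 2 biological replicates, a pool of 78 embryos for replicate 1 and a pool of 62 for replicate 2, each of both sexes, with no treatment or mutation in the labels and the same donor identifier on both. With 1 group, the design holds no comparison between conditions, and the levels below describe the embryonic lung only.

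Imprinted genes are expressed mainly from the copy inherited from 1 parent, set by methylation marks laid down in the egg or the sperm, and many of them act on growth before birth. Mest, Igf2 and the Nespas transcript antisense to Gnas are known to be read from the paternal copy, and H19 from the maternal copy. A microRNA is cut from a hairpin in a longer transcript, and 1 or both arms of the hairpin are loaded into Argonaute, where bases 2 to 8, the seed, pair with target messenger RNAs. The libraries were not read by allele, so parent-of-origin expression was not measured. A gene in these tables is a whole hairpin, so the arms below share 1 value per gene.

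All 5 genes have a hairpin and both arms in RefSeq (GRCm38.p6, the assembly also called mm10). The mature arms are shown because the seeds decide whether the 5 genes form a family, with the seed in capitals and written 5′ to 3′.
mmu-miR-335-5p: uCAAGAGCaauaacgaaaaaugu
mmu-miR-335-3p: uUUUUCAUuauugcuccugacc
mmu-miR-296-5p: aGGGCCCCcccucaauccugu
mmu-miR-296-3p: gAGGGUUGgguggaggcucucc
mmu-miR-298-5p: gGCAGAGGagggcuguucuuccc
mmu-miR-298-3p: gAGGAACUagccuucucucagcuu
mmu-miR-483-5p: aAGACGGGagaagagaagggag
mmu-miR-483-3p: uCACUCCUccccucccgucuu
mmu-miR-675-5p: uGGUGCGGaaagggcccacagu
mmu-miR-675-3p: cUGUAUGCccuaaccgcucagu
No seed was shared among these 10 arms, and none of the 10 was the seed of an arm of any other gene among the 1738 mature arms of the RefSeq table. The genes are therefore linked by locus and not by seed. When only bases 2 to 7 were required, the tabulated genes Mir6986, Mir5621 and Mir3110 shared them with miR-335-3p, miR-296-5p and miR-483-3p, in that order. None of these 3 genes reached 10 counts in both libraries. A further gene shared them with miR-335-5p but was not tabulated, so it has no level here.

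The hairpins of the most and the least abundant gene are shown with both arms in capitals.
Mir335 hairpin: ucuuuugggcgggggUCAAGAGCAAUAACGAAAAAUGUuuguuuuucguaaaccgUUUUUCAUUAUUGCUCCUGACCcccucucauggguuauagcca
Mir675 hairpin: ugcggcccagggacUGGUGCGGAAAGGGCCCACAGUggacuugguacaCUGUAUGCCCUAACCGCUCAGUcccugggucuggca
The Mir335 hairpin had a GC content of 42.9%, below the median of 50.5% over the 309 hairpins that RefSeq holds for detected genes. The other 4 lay above that median, with Mir298 at 53.7%, Mir483 at 58.9%, Mir675 at 63.1% and Mir296 at 63.3%. The predicted folding energy per 100 nt, a measure of how firmly a hairpin pairs with itself, was -66.7 kcal/mol for Mir675 against a median of -43.5 kcal/mol over the same hairpins. The other 4 lay between -54.7 kcal/mol for Mir296 and -45.2 kcal/mol for Mir335. None of the 5 shared a stretch of 20 nt, on either strand, with another precursor of the tables, while 923 precursors did. None of the 10 arms occurred whole in the hairpin of another gene. Reads that mapped to several places, 31.4% of the reads in replicate 1 and 30.6% in replicate 2, were tallied on a separate summary line, outside the genes. Matches of the 5 genes outside the annotated precursors were not searched.

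In mm10, Mir335 (ENSMUSG00000065501.1) lies at chr6:30741299-30741396 on the plus strand, in an intron of all 7 annotated Mest transcripts that span it. Mest encodes an enzyme-like protein of the alpha/beta-hydrolase fold, abundant in embryonic mesoderm. Mir296 (ENSMUSG00000065521.1), at chr2:174267047-174267125, and Mir298 (ENSMUSG00000065410.1), at chr2:174267504-174267585, lie 378 bp apart on the minus strand. Neither was inside a gene of the GENCODE M21 annotation. The annotated 3′ end of Nespas, on the same strand, lay 14111 bp from Mir296, so that the pair lies downstream of it. Gnas itself, which encodes the stimulatory G protein alpha subunit, is on the plus strand. Mir483 (ENSMUSG00000070140.1), at chr7:142654924-142654996 on the minus strand, lay in an intron of the 7 transcripts of Igf2 that span it, and of the overlapping gene Gm49394. Igf2 is a growth factor of the fetus. Mir675 (ENSMUSG00000076275.1), at chr7:142577064-142577147 on the minus strand, lay within an exon of 3 of the 4 transcripts of H19 that span it. H19 is a long noncoding RNA next to Igf2, and 77776 bp separated the 2 hairpins.

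**Figure D1:**
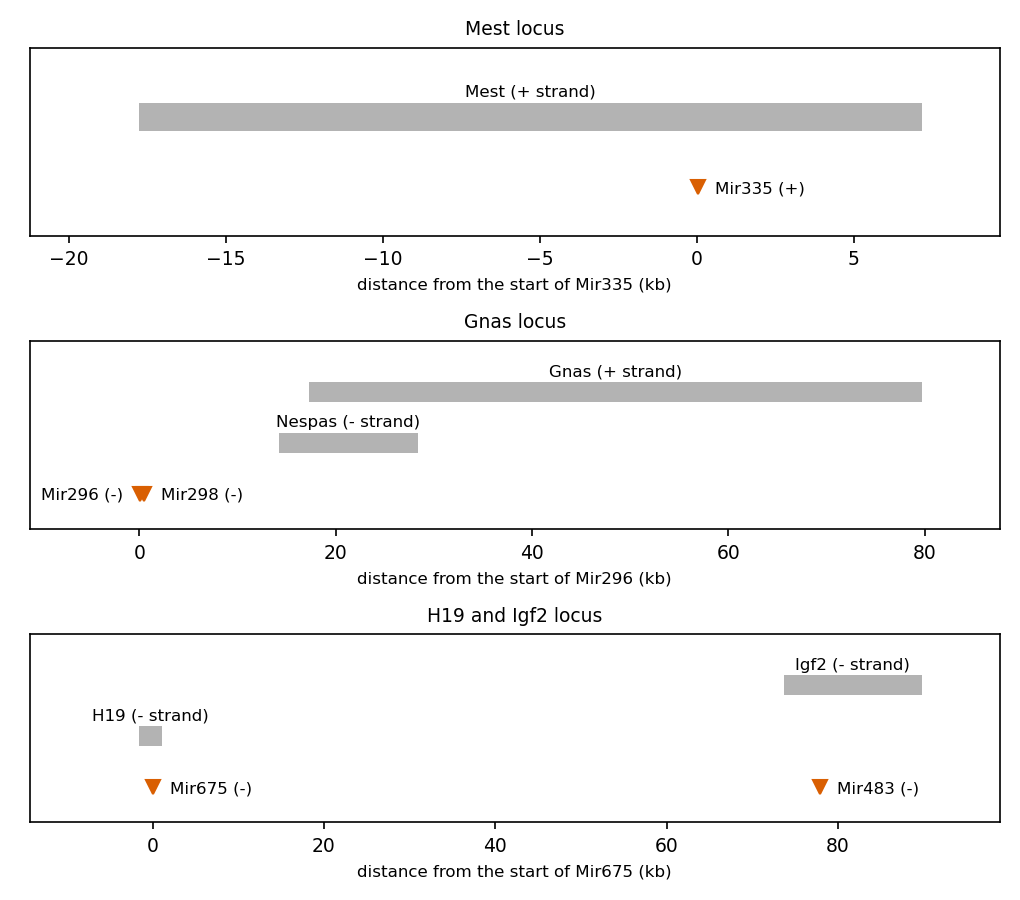
Maps of the 3 loci, with distance in kb from the start of Mir335, Mir296 or Mir675 on the horizontal axis, genes as grey bars and microRNA hairpins as triangles, each with its strand. Mir335, Mir483 and Mir675 sit inside a gene of their own strand, and Mir296 and Mir298 sit outside the annotated Nespas and Gnas.

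The tables held 5354530 counts in replicate 1 and 6489390 in replicate 2 on the annotated strand of microRNA genes, which set CPM, the counts per 1000000 of them. The value of 3 counts, the most that a count of 0 allows, was 0.560 CPM in replicate 1 and 0.462 CPM in replicate 2. Floors and intervals here cover counting error only, as no molecular identifiers are recorded. The lung was represented by its markers: the 5 members of the miR-200 family, of epithelium, were all detected and summed to 31937 and 31476 CPM in replicates 1 and 2. Mir126a, of endothelium, stood at 68906 and 67001 CPM, and the sum of Mir143 and Mir145a, of smooth muscle and other mesenchyme, at 77625 and 83086 CPM. In whole tissue, fewer cells that make a microRNA and less of it per cell cannot be told apart.

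All 5 genes were detected, that is counted 10 times or more in each library, against 18.1% of the 1973 genes of the tables (357 genes). Together they took 6.12% of the counts in replicate 1 and 6.29% in replicate 2, a mean of 6.21% ± 0.121 (SD, n = 2). Mir335 alone held 88.9% of the counts of the 5 in replicate 1 and 89.1% in replicate 2. Without Mir335 the share of the list was 0.685%. So the list was dominated by the Mest microRNA, and the remaining 4 spanned from well above to slightly below the median detected gene, which stood at 123 CPM.

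Mir335, counted by 291277 reads in replicate 1 and 363707 in replicate 2, stood at 54398 and 56046 CPM. Its mean was 55222 ± 1165 CPM (SD, n = 2), 449 times the median detected gene, and it ranked 6 in each library. The microRNA is known from mesoderm-derived tissues, where it is made together with Mest. Among 854 tabulated hairpins inside a protein-coding gene of their own strand, only Mir126a, in Egfl7, and Mirlet7g, in Wdr82, had higher means. Reads that mapped to several places were kept out of the genes, so hairpins that share sequence can be undercounted, whereas Mir335 shared no 20 nt. Its place here, its rank and its fold over the median therefore hold among the reads counted in genes only. Next above Mir335 in level over the 2 libraries came Mirlet7i, at 60363 and 62348 CPM, and next below it Mir99a, at 43797 and 37949 CPM. Neither overlapped the values of Mir335. The 2 steps further, to Mirlet7g above and Mir10a below, did not overlap them either, so its place in the order was wider than the spread between the replicates.

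Mir296 and Mir298 of the Gnas locus were the next most abundant. Mir296, known from endothelial cells and embryonic stem cells, had 20822 and 24992 counts, or 3889 and 3851 CPM in replicates 1 and 2, with a mean of 3870 ± 26.5 CPM (SD, n = 2). Mir298 had 11543 and 14563 counts, or 2156 and 2244 CPM, with a mean of 2200 ± 62.5 CPM (SD, n = 2). Mir296 was higher than Mir298 in both libraries, and their values did not overlap. The ratio was 1.80 in replicate 1 (95% exact binomial interval 1.76 to 1.85) and 1.72 in replicate 2 (1.68 to 1.75), a mean log2 ratio of 0.82 ± 0.0509 (SD, n = 2). Mir296 supplied 64.3% of the summed counts of the pair in replicate 1 and 63.2% in replicate 2. The neighbouring hairpins differed by 1.76-fold on average, the smallest difference among the 5 genes.

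Both genes had close company in level. Mir130b and Mir100, next above and next below Mir296, overlapped it between the libraries, whereas Mir15a and Mir342, a step further out, did not. Around Mir298, Mir27b above and Mir22 and Mir16-1 below overlapped it, and Mir455 did not. Mir27b and Mir16-1 share sequence with other precursors, so their counts are uncertain. The only other annotated microRNA within 100000 bp of the pair was Gm27591, which had 0 counts in both libraries, allowing up to 0.560 CPM in replicate 1 and 0.462 CPM in replicate 2.

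Mir483, in the Igf2 intron, and Mir675, in H19, were the least abundant of the 5. Mir483 had 3742 and 4493 counts, or 699 and 692 CPM, with a mean of 696 ± 4.59 CPM (SD, n = 2), which is 5.66 times the median detected gene. Mir675 had 395 and 569 counts, or 73.8 and 87.7 CPM, with a mean of 80.7 ± 9.84 CPM (SD, n = 2), which is 0.656 times that median. It was the only member below the median, in both libraries. Mir675 is known chiefly from the placenta, and Mir483 from fetal liver, where Igf2 is abundant.

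On chromosome 7, Mir483 exceeded Mir675 by 9.47-fold in replicate 1 (95% exact binomial interval 8.54 to 10.5) and by 7.90-fold in replicate 2 (7.24 to 8.63). The mean log2 ratio was 3.11 ± 0.186 (SD, n = 2), so the size of the difference far exceeded the spread. Mir483 lay within the values of its neighbours in level, Mir433 and Mir540 above and Mir187 and Mir341 below, all 4 of which overlapped it. Mir675 likewise overlapped Mir196b and Mir495 above and Mir701 and Mir7-1 below, and Mir7-1 shares sequence with another precursor, so that its count is uncertain. The exact ranks of Mir483 and Mir675, 107 and 198 by mean, were not fixed by these libraries. Nor was that of Mir298, at 66 in replicate 1 and 63 in replicate 2. Mir296 ranked 46 in each, although genes next to it overlapped it.

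**Figure D2:**
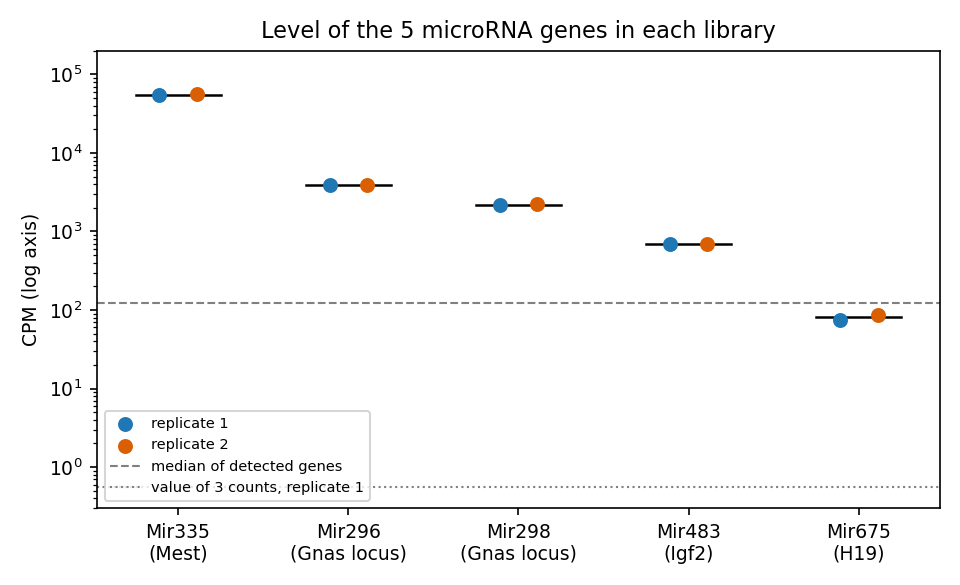
CPM on a log axis for each of the 5 genes, with replicate 1 in blue, replicate 2 in orange and a black bar at the mean. The dashed line is the median of detected genes, 123 CPM, and the dotted line the value of 3 counts in replicate 1, 0.560 CPM; only Mir675 sits below the median.

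The order Mir335, Mir296, Mir298, Mir483, Mir675 held in both libraries, and in 10 of 10 pairs the values of the 2 genes did not overlap, as in 96.4% of all pairs of detected genes. The largest gap was that of Mir335 over Mir675, 687-fold (log2 ratio 9.42 ± 0.146, SD, n = 2), and the smallest the one within the Gnas pair. Mir335 exceeded Mir296 by 14.3-fold (log2 ratio 3.83 ± 0.0403), Mir296 exceeded Mir483 by 5.56-fold (2.48 ± 0.000362) and Mir298 exceeded Mir483 by 3.16-fold (1.66 ± 0.0505). An exact 2-sided permutation test gave p = 0.333 for each of the 10 pairs, and 0.333 after Benjamini-Hochberg adjustment over them. That test treats the values as unpaired, and 0.333 is the smallest p that 2 against 2 allow. With the 2 genes paired by library, exact sign flips gave p = 0.50 each time, also the smallest possible, so no pair could pass 0.05. A read spans a whole mature microRNA, so CPM was not divided by length. Per 100 nt of hairpin the order was the same, from 56349 CPM for Mir335 to 96.1 CPM for Mir675. Differences between sequences in ligation or amplification that both libraries share do not show in the SD.

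**Figure D3:**
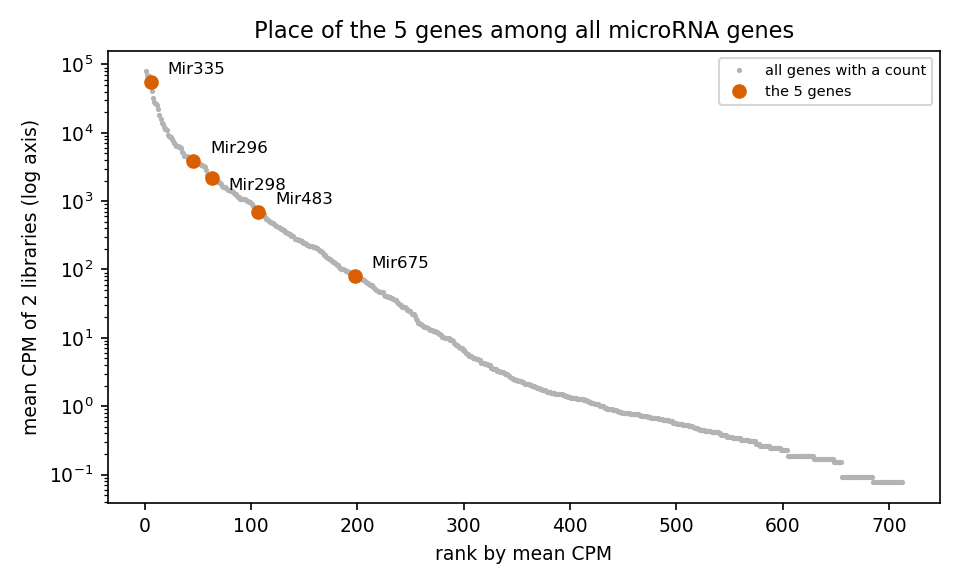
Mean CPM of 2 libraries on a log axis against rank, for each microRNA gene with a count in grey and the 5 genes in orange. Mir335 is at rank 6, Mir296 at 46, Mir298 at 63, Mir483 at 107 and Mir675 at 198. Ranks are by mean, and Mir296, Mir298, Mir483 and Mir675 each overlapped genes next to them in level.

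The replicates were close for the 4 more abundant genes and less so for Mir675. The ratio of replicate 2 over replicate 1 was 1.03 for Mir335 (95% exact binomial interval 1.03 to 1.04), 1.04 for Mir298 (1.02 to 1.07) and 1.19 for Mir675 (1.04 to 1.35). It was 0.990 for Mir296 (0.972 to 1.01) and 0.991 for Mir483 (0.948 to 1.03), intervals that include 1. The interval left out 1 for 3 of 5 genes, against 44.8% of the 357 detected genes. It lay above 1 for all 3 and below 1 for 0 of the 5, against 19.6% and 25.2% of detected genes, and the median detected gene differed by 1.10-fold. These ratios compare 2 libraries, each made once from its own pool. The biological coefficient of variation is the spread between replicates beyond counting, which edgeR estimates by sharing information across genes. It was 7.84% for Mir335, 9.19% for Mir296, 9.79% for Mir298, 11.8% for Mir483 and 15.7% for Mir675, against 12.7% over all detected genes. These estimates rose as level fell, whereas the SD was 2.11, 0.684, 2.84, 0.659 and 12.2% of the mean, in the same order of genes.

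Markers of other tissues also differed between the 2 pools. The striated muscle list, with 4 of 8 tabulated genes detected, summed to 929 CPM in replicate 1 and 1239 CPM in replicate 2. Its detected members went different ways: Mir208b was at 269 and 780 CPM, Mir206 at 54.2 and 156 CPM and Mir499 at 31.6 and 46.4 CPM, whereas Mir208a was at 573 and 255 CPM. Mir1a-1, Mir133a-1 and Mir133a-2 were listed at 0 in both libraries, but they share sequence with other precursors and reads that mapped to several places were kept out of the genes, so these zeros were not read as absence. The erythroid list, Mir451a and Mir144, both detected, went from 684 to 833 CPM, a ratio of 1.22. The liver list, with 3 of 4 detected, stood at 564 and 377 CPM, and the lower sum in replicate 2 lay in Mir122, at 470 and 278 CPM. Mir192, at 56.2 and 62.1 CPM, and Mir194-2, which shares sequence with another precursor, at 34.7 and 36.4 CPM, were slightly higher there. The leukocyte list, with 3 of 3 detected, stood at 850 and 767 CPM. In it, Mir223 was at 685 and 648 CPM and Mir155 at 125 and 78.3 CPM, whereas Mir150 was at 40.5 and 40.8 CPM. The neural list, with 1 of 6 detected, stood at 168 and 111 CPM. That sum was mainly Mir137, at 166 and 108 CPM, whereas Mir9-3, not detected, was at 1.68 and 2.77 CPM. The Mir124a copies and Mir9-2 were listed at 0, with the same limit. The part of these tissues in the levels of the 5 genes was not tested.

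**Figure D4:**
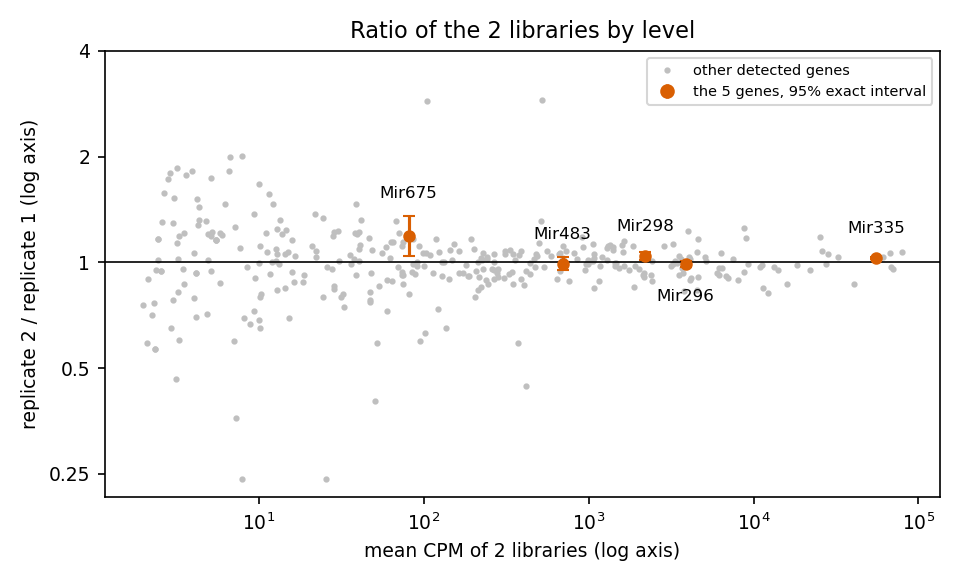
Ratio of replicate 2 over replicate 1 against mean CPM, both on log axes, with other detected genes in grey and the 5 genes in orange with 95% exact binomial intervals. Mir675, at 1.19, is the farthest of the 5 from 1, and the scatter of all genes widens toward low CPM.

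The other microRNAs of imprinted genes show how the 5 stand among their kind. A list of 60 imprinted genes held 141 tabulated hairpins on either strand, inside 13 of them, and 36 of the hairpins were detected. Mir335 was the highest of the 141. Summed over the hairpins inside each host, Mest was followed by Mirg, a noncoding host of the Dlk1-Dio3 region, at 14323 ± 409 CPM with 12 of 13 detected, and by hairpins antisense to Rtl1 at 11714 ± 142 CPM with 4 of 5 detected, led by Mir127. The Gnas pair, which has no annotated host, came to 6070 ± 36.0 CPM. Sfmbt2 held 3910 ± 72.5 CPM over 107 hairpins, of which 10 were detected, and Rian, another noncoding host of the Dlk1-Dio3 region, 1024 ± 14.5 CPM (all SD, n = 2). As counted, these values put the single hairpin of Mest above every multi-hairpin host of the list. Hairpins were assigned by the annotated ends of the hosts, so Mir411 of the Dlk1-Dio3 region, at 9215 CPM, lay in none of them. On the annotated strand, the hairpins of the Dlk1-Dio3 region together took 5.53% of the counts, against 5.52% for Mir335. Opposite-strand reads are left out of both shares. In that region they included 35035 and 41454 at Gm24321 in replicates 1 and 2, whereas Mir335 had 0 and 2. Of the 107 Sfmbt2 hairpins, 105 share sequence with another precursor, so their sum can be undercounted.

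Igf2 and H19 had 1 hairpin each and stood lower in that order. Rtl1 held Mir3071 on its own strand, at 266 ± 10.5 CPM, between Mir483 and Mir675. Meg3, the maternally expressed noncoding gene of the Dlk1-Dio3 region, had Mir770 at 90.4 ± 1.51 CPM, close to Mir675 in H19 but above it in both libraries. Usp29, in the Peg3 region, had Mir3099 at 18.8 ± 1.12 CPM. Blcap, whose intron also holds Nnat on the opposite strand, had Gm23134 at 3.27 ± 0.393 CPM, which shares sequence with another precursor and is uncertain. In Calcr, Mir489 and Mir653 stayed below 10 counts, with at most 8 in replicate 1 and 5 in replicate 2 for Mir653. Single detected hairpins thus ranged widely in level from host to host. Mest, Igf2 and H19 were all above Usp29 and Blcap, and H19 was below Rtl1 and Meg3.

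**Figure D5:**
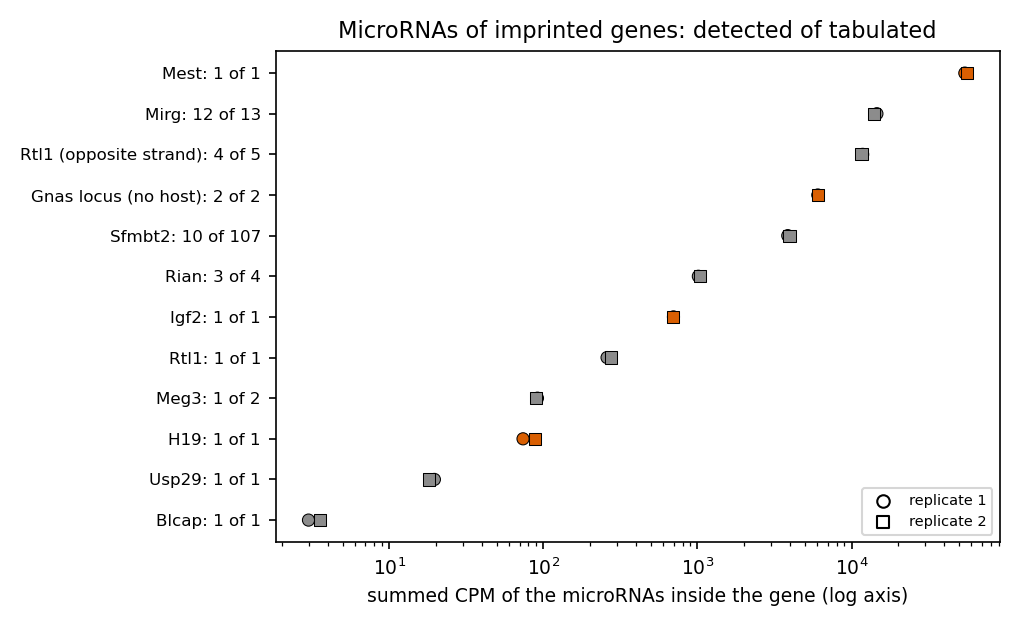
Summed CPM on a log axis of the microRNAs inside each imprinted gene with a detected hairpin, circles for replicate 1 and squares for replicate 2, with the number detected of the number tabulated beside each name. The loci of the 5 genes are in orange: Mest is highest at 55222 CPM, the Gnas pair sits below the hairpins antisense to Rtl1, and H19 sits beside Meg3.

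Set against the Dlk1-Dio3 microRNAs, the imprinted region with the most detected hairpins here, the 5 genes took a share of the counts of the same order. Of 59 tabulated hairpins between Dlk1 and Dio3, 46 were detected, and they took 5.53% ± 0.109 against 6.21% ± 0.121 for the 5 genes, a log2 ratio of 0.17 ± 0.0565 (SD, n = 2). The exact 2-sided permutation test gave p = 0.333 and exact sign flips within libraries p = 0.50, each the smallest possible with 2 libraries. The direction is not settled: the log2 ratio was -0.11 once reads on the opposite strand were added and -3.01 with Mir335 left out. Within the Dlk1-Dio3 region, opposite-strand reads lay mainly at Gm24321 (35035 and 41454), Gm25252, Mir299b and Gm25750, whereas the 5 genes had 0 such reads in replicate 1 and 3 in replicate 2.

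Gene by gene, Mir335 lay above all 59 Dlk1-Dio3 hairpins in both libraries, and it exceeded the highest of them, Mir411 (9267 and 9164 CPM), by 5.99-fold (log2 ratio 2.58 ± 0.0419, SD, n = 2). On the annotated strand, 4 of the 59 lay wholly above Mir296, 8 above Mir298, 14 above Mir483 and 33 above Mir675. Opposite-strand reads could change these places. Gm24321, at 0 on the annotated strand, had 35035 and 41454 of them, against 20822 and 24992 counts for Mir296. The median detected Dlk1-Dio3 hairpin stood at 266 CPM, between Mir483 and Mir675. Of the 59, 5 share sequence with other precursors, Mir411 among them, and their counts are uncertain.

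Against the hairpins in the Sfmbt2 intron, a rodent expansion known from placenta, the 5 genes took 15.9-fold more of the counts. The shares were 6.21% ± 0.121 and 0.391% ± 0.00725, a log2 ratio of 3.99 ± 0.00129 (SD, n = 2), with p = 0.333 by the exact 2-sided permutation test and p = 0.50 by exact sign flips within libraries, again the smallest possible. Without Mir335 the log2 ratio was 0.81. Of the 107 Sfmbt2 hairpins, 105 share sequence with another precursor, so their share and this fold are uncertain. Reads that mapped to several places were outside the genes, so the share of Sfmbt2 is probably too low and the fold too high.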

How the data were processed

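Small RNA of 2 lung pools was analysed. The authors deposited unnormalized counts of reads for each microRNA gene, on the mm10 assembly per the labels. The aligner and counter were not given in the sources used here. The column taken as the annotated strand was used, judged from the totals, and library sizes left out the 4 summary lines. Of all reads, 46.9% and 48.0% were counted in genes. CPM, means and SDs over 2 replicates were computed from those counts. GENCODE M21 (GRCm38) supplied names and positions and matched 1894 of 1973 identifiers without version suffix. Sequences came from RefSeq. Hairpins were folded with RNAfold 2.7.2. Genes with at least 10 counts in both libraries were called detected. Named genes were the 5 members, the 2 genes next above and below each by mean log2(CPM + 1), seed partners, microRNAs within 100000 bp, the highest gene of each imprinted host, and marker genes; genes sharing bases 2 to 7 and those with opposite-strand reads were named after their values were seen. The members and lists were chosen with earlier results of these data known. Replicate ratios had 95% exact binomial intervals, and on simulated counts over 357 genes without biological spread, 100 genes simulated at 2-fold gave a median ratio of 2.00. Alternatives tried were either-strand counts, single replicates, other denominators, minimum counts, list members, edgeR 4.0.16 TMM and DESeq2 1.42.0 size factors. Python 3.11.15, scipy 1.17.1, R 4.3.3 and matplotlib 3.10.9 were used.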

Additional observations from a re-analysis of the deposited data

How the results depend on the processing

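All 5 genes were detected under every minimum count, strand column and single replicate tried. With counts taken without regard to strand, the levels were 53625 CPM for Mir335, 3758 CPM for Mir296, 2136 CPM for Mir298 and 675 CPM for Mir483, and the share of the 5 genes was 6.03%. With all reads of the library as the denominator, the levels were 26202, 1836, 1044, 330.0 and 38.3 per 1000000 reads for Mir335, Mir296, Mir298, Mir483 and Mir675, and the share was 2.95%. With Mir143 left out of the total they were 59981 CPM for Mir335, 4203 CPM for Mir296, 2390 CPM for Mir298 and 756 CPM for Mir483. Without Mir335 the share was 0.685%, and the log2 ratio was -3.01 to the Dlk1-Dio3 hairpins and 0.81 to the Sfmbt2 hairpins. The ratio to Dlk1-Dio3 was -0.11 with opposite-strand reads included by either route and 0.43 without sequence-sharing genes. The ratio to Sfmbt2 without such genes, 16.32, rests on 2 hairpins with 4 and 5 counts. The ratio of replicate 2 over 1 crossed 1 for Mir296 (1.01 with TMM, 1.00 with DESeq2 size factors) and Mir483 (1.01 and 1.00), with intervals that include 1 throughout. The 30 alternatives for pairs of members, chosen after seeing the data, kept each direction. Pairing the 2 genes or lists within each library, also chosen after seeing the data, gave an exact sign-flip p of 0.50 throughout, the smallest possible. Mir675, at 395 and 569 counts, is the member that depth limits most.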
